A study of Mus musculus with 15 samples.

Results

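Wwox, Exoc4, Magi1, Etl4 and Arl15 are long mouse genes that held many SAM68 binding sites, and the values below describe whether the same positions of their transcripts carried the sites on each day. The 5 genes, of 7949 gene IDs with a site, were chosen by their numbers of sites in the 3 lists, so those numbers are a description and carry no test. Their sites were the entries with the Ensembl ID of each gene, 692 of 29740 sites on day 0, 566 of 28266 on day 3 and 1062 of 74287 on day 10. SAM68 was mapped by iCLIP2, in which ultraviolet light fixes a protein to RNA and the stop of reverse transcription marks the contact, in E14 mouse embryonic stem cells with no genetic change named in the labels. The groups were undifferentiated cells at day 0, maintained with LIF and the GSKi and MEKi inhibitors, embryoid bodies at day 3 grown in hanging drops, and embryoid bodies at day 10 grown in spheroid plates, with 5 libraries per day. Because the culture format changed with the day, these cannot be told apart, and E14 is a single stem cell line. Embryoid bodies hold several differentiating cell types, so fewer cells of a type and less RNA per cell cannot be told apart.

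SAM68 (Khdrbs1) belongs to the STAR family of RNA-binding proteins, which hold a KH domain and bind short A- and U-rich elements. It acts largely on transcripts in the nucleus, where it takes part in the choice of splice sites and of early polyadenylation sites inside introns. Long genes offer it long introns, which make up nearly all of their primary transcripts. The 5 genes have no common pathway. Wwox encodes an oxidoreductase with WW domains that acts as a tumour suppressor and, in humans, spans a common fragile site. Exoc4 (Sec8) encodes a subunit of the exocyst, the complex that tethers secretory vesicles to the plasma membrane. Magi1 encodes a scaffold protein with PDZ and WW domains at cell junctions. Etl4 (Skt, sickle tail) is known in the mouse for a role in the intervertebral disc. Arl15 encodes a small GTPase of the ARF-like family.

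Each list holds called sites of 5 nt, pooled over the libraries of a day, without counts of crosslinks. The depth is therefore unknown, the spread between replicates cannot be given, and days were not tested against each other. Intervals are exact binomial 95% intervals of a share of sites. They cover counting error only, and neighbouring sites are not independent. The day 10 list is far longer than the others, so a site of day 0 or day 3 meets more candidate partners on day 10 than the reverse. RNA abundance was not used here, and its part in the results was not tested.

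Exoc4 and Etl4 were near the top of the lists on all days, while the other 3 genes were high on some days and much lower on another. Exoc4 held 143 sites on day 0, 175 on day 3 and 435 on day 10, which were ranks 4, 2 and 5 among all gene IDs. Etl4 held 140, 180 and 161 sites, at ranks 5, 1 and 31. These were the highest lowest counts of any gene ID over the 3 days, 143 in Exoc4 and 140 in Etl4.

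Wwox had 229 sites in the day 0 list, 45 in that of day 3 and 113 in that of day 10, at ranks 1, 55 and 61. Arl15 held 158, 69 and 47 sites, at ranks 3, 17 and 327. Both genes thus had their highest count on day 0, in contrast to Magi1, which held 22, 97 and 306 sites at ranks 232, 5 and 7. The description as heavily bound on every day therefore does not hold for Magi1 on day 0 or for Arl15 on day 10 to the degree of their other days. Their ranks of 232 and 327 are among 5056 gene IDs with a site on day 0 and 6345 on day 10. As the rule sets no threshold, the 10 other named protein-coding genes with the highest lowest count serve as its neighbours. Wwox, Arl15 and Magi1 had lowest counts of 45, 47 and 22, below all 10. These were Setd5, Kansl1, Smyd3, Mllt10, Tcf7l1, Rbpms, Diaph3, Ankrd11, Enah and Rad51b, whose lowest counts ran between 55 in Rad51b and 67 in Setd5.

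Scaled to the length of each list, Wwox held 77.0 sites per 10000 on day 0, 15.9 on day 3 and 15.2 on day 10. Arl15 held 53.1, 24.4 and 6.33 per 10000, a lower share in each later list. Magi1 held 7.40, 34.3 and 41.2 per 10000. Exoc4 stayed within a narrow range of shares, at 48.1, 61.9 and 58.6 per 10000, and Etl4 held 47.1, 63.7 and 21.7. Per 100 kb of gene, the density on day 0 was highest in Arl15, at 43.5 sites, and lowest in Magi1, at 3.62. On day 10 it was highest in Exoc4, at 60.0 sites per 100 kb, and lowest in Wwox, at 12.4.

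The genes span 913.1 kb (Wwox, chromosome 8, plus strand), 724.9 kb (Exoc4, chromosome 6, plus strand), 608.5 kb (Magi1, chromosome 6, minus strand), 900.3 kb (Etl4, chromosome 2, plus strand) and 363 kb (Arl15, chromosome 13, plus strand) by RefSeq. The sites of Wwox lay between positions 114489802 and 115223019, those of Exoc4 between 33256077 and 33972836 and those of Magi1 between 93688328 and 94281784 in the coordinates of the lists (GRCm38). Those of Etl4 lay between 20525964 and 20810224 and those of Arl15 between 113796135 and 114156667. No site of these IDs lay outside the RefSeq span of its gene, and no site of another ID lay inside a span on either strand. The authors removed sites in overlapping genes. Other RefSeq genes, none of them protein-coding, covered 4.06% of the Wwox span, 4.62% of Exoc4, 17.2% of Magi1, 4.93% of Etl4 and 7.51% of Arl15. Sites were kept under some of these genes. They covered 100% of part 2 of 10 equal parts of Magi1, which held 2, 14 and 51 sites. Which genes the authors' step counted as overlapping is not known here. Exons and introns of the members were not assigned here.

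Etl4 showed the plainest division along a gene. All of its 140, 180 and 161 sites lay in the last part of the span, the first of them 615.8 kb from the 5′ end on day 0, 624.3 kb on day 3 and 622 kb on day 10. The 615.8 kb before the first site held none on any day, and other RefSeq genes covered 7.22% of that stretch. The RefSeq promoter table lists 3 starts for Etl4, at 379.7, 599.8 and 609.3 kb from the 5′ end of the span, and the nearest site downstream of the last of them was 6451 nt away. No site lay in the promoter window of any of these starts. The 100 bases directly before each start are shown because all sites of all days lie downstream of all 3 (RefSeq, GRCm38.p6, plus strand, 5′ to 3′, lower case throughout since no searched motif was found).
Etl4 start at 379.7 kb, chr2:20289813-20289912: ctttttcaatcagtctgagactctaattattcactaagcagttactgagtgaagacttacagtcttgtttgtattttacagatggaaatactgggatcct
Etl4 start at 599.8 kb, chr2:20509947-20510046: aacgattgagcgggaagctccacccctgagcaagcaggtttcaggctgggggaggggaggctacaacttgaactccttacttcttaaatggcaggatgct
Etl4 start at 609.3 kb, chr2:20519413-20519512: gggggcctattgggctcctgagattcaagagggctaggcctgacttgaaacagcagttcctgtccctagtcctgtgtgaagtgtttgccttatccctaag
Their GC contents were 35%, 54% and 53%. None of the 3 stretches held TATAAA or GGGCGG on either strand, motifs that do not overlap each other and that were present in 5.56% and 24.7% of the same window of 32851 RefSeq promoters. Which start was used in these cells was not analysed here.

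Within the bound part of Etl4 the distribution was similar from day to day. Each span was divided into 10 equal bins, numbered from the 5′ end, and in Etl4 bin 8 held 71 sites on day 0, 71 on day 3 and 64 on day 10, and bin 10 23, 47 and 43. The densest window of 10 kb was the same on all 3 days, 640 to 650 kb from the 5′ end, with 14, 17 and 18 sites. To turn the day 10 distribution over bins into that of day 3, 4.04% of the sites would have to change bin, and against day 0 the value was 13.3%.

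Wwox held its sites mainly in bins 4 to 7 of the span. Bin 4 held 59 sites on day 0, 13 on day 3 and 29 on day 10, and bin 5 50, 13 and 27. Bin 3 was nearly empty on every day, with 2, 0 and 0 sites, and bin 10 held none. Other RefSeq genes covered 10.6% of bin 3 and none of bin 10. Between day 10 and day 0, 4.27% of sites would have to change bin, although the gene held 113 sites on day 10 against 229 on day 0. The value was 17.7% for day 3 against day 0, with 45 sites on day 3. The window from 300 to 310 kb was the densest of Wwox on day 3 and on day 10, with 9 sites on day 0, 4 on day 3 and 8 on day 10.

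Exoc4 was bound over its whole length, with bin 6 highest on each day, at 37, 40 and 85 sites. Bin 4 held 22, 36 and 66 sites and bin 10 9, 11 and 27. Day 10 sites were also found in stretches that were thin on the earlier days, such as bin 9 with 28 sites on day 10 and 4 on each earlier day. The distributions over bins differed by 11.5% between day 10 and day 0, by 8.40% between day 3 and day 0 and by 10.6% between day 10 and day 3.

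Arl15 had a stretch near its 5′ end and a second one around its middle, separated by a thin part. Bin 1 carried 25 (day 0), 9 (day 3) and 3 sites (day 10), and bin 6 37, 21 and 13. Bin 2 held 15, 3 and 1, and bin 3 held 2, 0 and 0. In all, the distribution over bins differed by 26.5% between day 10 and day 0. The densest window of 10 kb on day 0 was 30 to 40 kb from the 5′ end, with 12, 3 and 3 sites, whereas on day 3 it was 200 to 210 kb, with 8, 9 and 4 sites.

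Magi1 had more sites in the later lists along its whole length. Its bin 1 held 8 sites on day 0, 30 on day 3 and 70 on day 10, bin 4 0, 2 and 16, and bin 6 0, 7 and 31. On day 0, 7 of the 22 sites lay in bin 7, which held 17 and 36 sites on the later days. The distributions differed by 35.8% between day 10 and day 0 and by 16.2% between day 10 and day 3. With 22 sites on day 0, each site is a large part of the first value. RefSeq lists 2 starts inside Magi1, 371 and 370.2 kb from the 5′ end, and sites lay on both sides of them on every day, 13, 65 and 224 upstream and 9, 32 and 82 downstream.

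**Figure D1:**
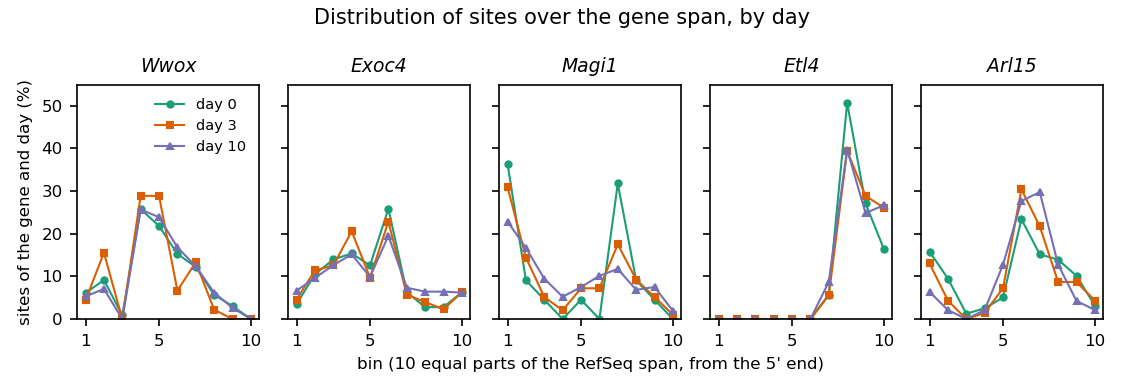
Percent of the sites of a gene and day (y axis) in each of 10 equal bins of the RefSeq span, numbered from the 5′ end (x axis), for day 0 (circles), day 3 (squares) and day 10 (triangles). In Etl4 no site lies before bin 7 on any day, and in Wwox the day 10 and day 0 curves lie close together.

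Over bins, the 10 neighbouring genes gave values of the same order, but their bins were mostly shorter. Spans ran between 363 and 913.1 kb in the 5 genes and between 76.2 kb (Setd5) and 566.1 kb (Smyd3) in the 10. The value depends on this length. In Wwox, day 10 against day 0 gave 13.5% in windows of 50 kb and 32.9% in windows of 10 kb. The percent of sites that would have to change bin between day 10 and day 0 ran between 4.27 and 35.8 in the 5 genes, with a median of 13.3, and between 9.32 and 20.4 in the 10 others, with a median of 16.8. For day 3 against day 0 the medians were 16.9 in the 5 genes and 17.3 in the 10. Over the 3 lists together, bin 1 held 25.4% of sites in Magi1, 13.5% in Arl15, 5.68% in Wwox, 5.58% in Exoc4 and 0% in Etl4. In 128 other named genes of at least 300 kb with at least 20 sites it held a median of 9.27% (quartiles 2.62 and 21.1). Bin 10 held 23.5% of the Etl4 sites, against an upper quartile of 6.08% in the 128 genes. All Etl4 sites lay within 284.3 kb of its 900.3 kb span, so few bins share them. Neither value of Etl4 describes how evenly the bound stretch is filled. These comparisons carry no test.

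At the scale of 10 kb, sites of the thinner days mostly fell in windows that were used on the day with most sites, but those windows made up most of the bound stretch. All 45 day 3 sites of Wwox and 112 of its 113 day 10 sites lay in a window with a day 0 site, and such windows were 83.8% of the 74 windows between the first and the last site of the gene. In Arl15, all 47 day 10 sites and 68 of 69 day 3 sites lay in windows used on day 0, which were 86.5% of its 37 windows. In Etl4, day 3 used 29 of the 30 windows between the first and the last site, so that nearly every site of another day had to lie in one of them. All 161 day 10 sites and 139 of 140 day 0 sites did.

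In Magi1 the day with most sites was day 10. All 22 day 0 sites lay in windows used on day 10, which were 86.7% of its 60 windows, and 139 of 306 day 10 sites (45.4%) lay in windows used on day 0, which were 28.3%. In Exoc4, 378 of 435 day 10 sites (86.9%) and 157 of 175 day 3 sites (89.7%) lay in windows used on day 0, which were 68.5% of its 73 windows. Pooled over the 5 genes and their whole spans, 89.0% of day 3 sites and 78.7% of day 10 sites lay in windows of day 0, which were 53.1% of all windows, and 87.2% of day 10 sites in windows of day 3, which were 48.6%. Whole spans include ends without a site, such as the first 615.8 kb of Etl4, which lowers the 53.1% and the 48.6%.

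At the level of single positions most sites were not shared. Sites that overlapped by at least 1 nt on the same strand were counted as shared. Pooled over the 5 genes, 112 of 566 day 3 sites (19.8%, interval 16.6 to 23.3) shared a position with day 0, where the share over the whole day 3 list was 18.3%. Of 1062 day 10 sites, 153 (14.4%, 12.3 to 16.7) shared a position with day 0 and 148 (13.9%, 11.9 to 16.2) with day 3, against 9.68% and 9.9% of the whole day 10 list. In the 10 neighbouring genes the 3 shares were 21.6%, 19.4% and 18.9%. In 291 other named genes of at least 300 kb, 3 of the 10 among them, they were 12.05%, 3.36% and 5.16%. The day 3 share of the 5 genes was thus near that of the whole list and above that of the other long genes. Their day 10 shares lay above both and below the 10 genes with many sites on each day. The sets differ in how many sites the earlier day offers, and 144 of the 291 long genes held a site on day 0 and 171 on day 3. A gene with no site on the earlier day cannot share any.

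Seen from the earlier day, 111 of 692 day 0 sites (16.0%) met a day 3 site and 154 (22.3%) a day 10 site, against 17.4% and 24.1% of the whole day 0 list. Of the day 3 sites, 147 (26.0%) met a day 10 site, against 25.9% of the whole list. These 3 shares are near those of the whole lists. In the 10 neighbouring genes they were higher, at 21.4%, 29.5% and 29.8%, and in the 291 other long genes they were 16.1%, 18.2% and 21.0%. On day 0, 61 sites of the 5 genes (8.82%, 6.81 to 11.2) were shared with both later days, against 10.1% of the list, 13.0% in the 10 neighbouring genes and 8.44% in the other long genes.

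**Figure D2:**
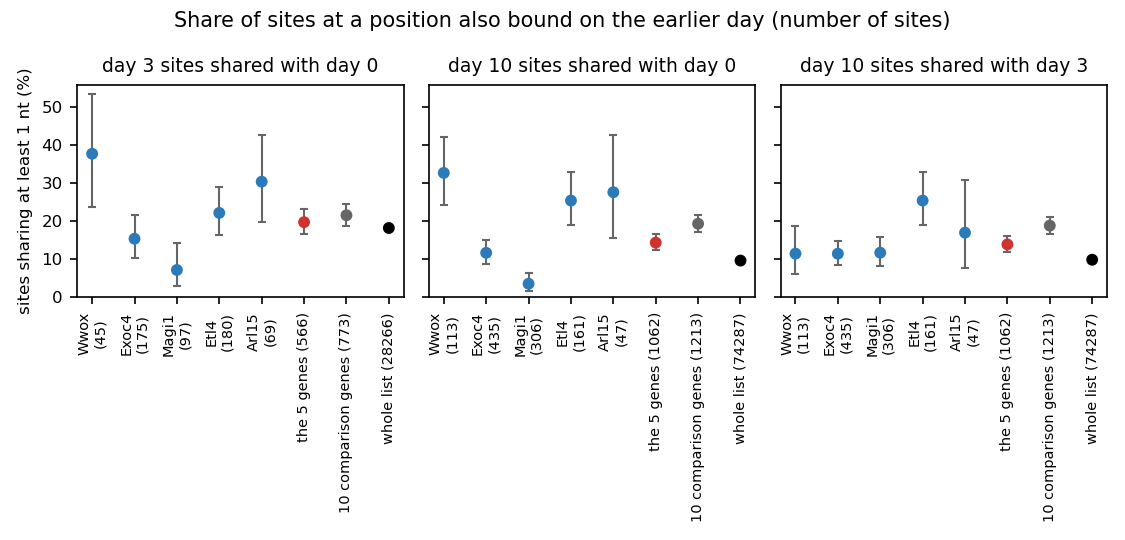
Percent of sites that share at least 1 nt with a site of the earlier day (y axis), for each gene, the 5 genes pooled, the 10 other genes with most sites on every day and the whole list, with the number of sites in brackets. Bars are exact binomial 95% intervals. Magi1 is lowest in the panels that set day 3 and day 10 against day 0, and Etl4 is highest in the panel of day 10 against day 3.

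The genes differed in this share. Of the day 10 sites, 37 of 113 in Wwox (32.7%, interval 24.2 to 42.2), 13 of 47 in Arl15 (27.7%, 15.6 to 42.6) and 41 of 161 in Etl4 (25.5%, 18.9 to 32.9) were shared with day 0. The value was 51 of 435 in Exoc4 (11.7%, 8.86 to 15.1) and 11 of 306 in Magi1 (3.59%, 1.81 to 6.34). The bases within reach of a day 0 site, at most 4 nt from its centre, were 0.391% of the span in Arl15, 0.224% in Wwox, 0.176% in Exoc4, 0.140% in Etl4 and 0.0325% in Magi1. Wwox and Arl15, with most day 0 sites, and Magi1, with fewest, are therefore at opposite ends of both measures. These percentages are of the whole span, which in Etl4 includes the 615.8 kb without a site.

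In the reverse direction Magi1 was highest. Of its 22 day 0 sites, 11 (50%, interval 28.2 to 71.8) met a day 10 site. The share was 50 of 143 in Exoc4 (35.0%, 27.2 to 43.4), 42 of 140 in Etl4 (30%, 22.6 to 38.3), 38 of 229 in Wwox (16.6%, 12.0 to 22.1) and 13 of 158 in Arl15 (8.23%, 4.45 to 13.7). The order of the genes was thus nearly turned round, and neighbours in it had overlapping intervals except Etl4 and Wwox, whose intervals stood just apart. Both directions count nearly the same pairs of sites, with 11 in Magi1 each way. The turn thus follows from the divisor, now the day 0 count and not that of day 10. The genes were chosen by these counts. For day 10 against day 3, Etl4 had 41 of 161 shared sites (25.5%, 18.9 to 32.9), and Arl15, Magi1, Wwox and Exoc4 had 17.0%, 11.8%, 11.5% and 11.5%.

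Day 3 sites were shared with day 0 at 17 of 45 in Wwox (37.8%, 23.8 to 53.5), 21 of 69 in Arl15 (30.4%), 40 of 180 in Etl4 (22.2%), 27 of 175 in Exoc4 (15.4%) and 7 of 97 in Magi1 (7.22%). The median over the 5 genes was 22.2%, against 22.7% over the 10 neighbouring genes, which ran between 15.6% and 29.8%. Of the sites in the largest list of each gene, those found on that day alone were 183 of 229 in Wwox on day 0 (79.9%), 132 of 158 in Arl15 on day 0 (83.5%), 352 of 435 in Exoc4 on day 10 (80.9%), 265 of 306 in Magi1 on day 10 (86.6%) and 122 of 180 in Etl4 on day 3 (67.8%). Over the whole lists the share was 68.6% on day 0, 66.4% on day 3 and 84.4% on day 10. It was 62.1%, 61.8% and 70.2% in the 10 neighbouring genes. Wwox and Arl15 thus lay above the whole list, and Exoc4, Magi1 and Etl4 near it. Taking the largest list of each gene favours a high share, since the other days offer fewer partners.

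Where sites met, they met within a few bases. Of the 1062 day 10 sites of the 5 genes, 67 had the same centre as a day 0 site, 86 had one 1 to 4 nt away and 42 had the nearest at 5 to 50 nt. Per nt of offset this is 67 sites at offset 0, 10.8 at 1 to 4 nt, 0.457 at 5 to 50 nt and 0.259 at 51 to 500 nt. The day 10 sites set against day 3 gave 74, 9.25, 0.685 and 0.344, and the day 3 sites set against day 0 gave 46, 8.25, 0.304 and 0.154. The coincidence was thus concentrated within the width of a site.

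The remaining sites lay farther off. The median distance of a day 10 site to the nearest day 0 site was 240 nt in Wwox, 238 nt in Arl15, 264 nt in Etl4, 876 nt in Exoc4 and 6183 nt in Magi1. For comparison, the nearest site of day 10 itself was a median of 765 nt away in Wwox, 636 nt in Arl15, 283 nt in Etl4, 331 nt in Exoc4 and 386 nt in Magi1. In Wwox, Arl15, Exoc4 and Magi1 the smaller of the distances was to the day on which the gene held more sites. For Etl4 it was to day 0, with 140 sites against 161 on day 10. The part of the number of sites in these distances was not tested.

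**Figure D3:**
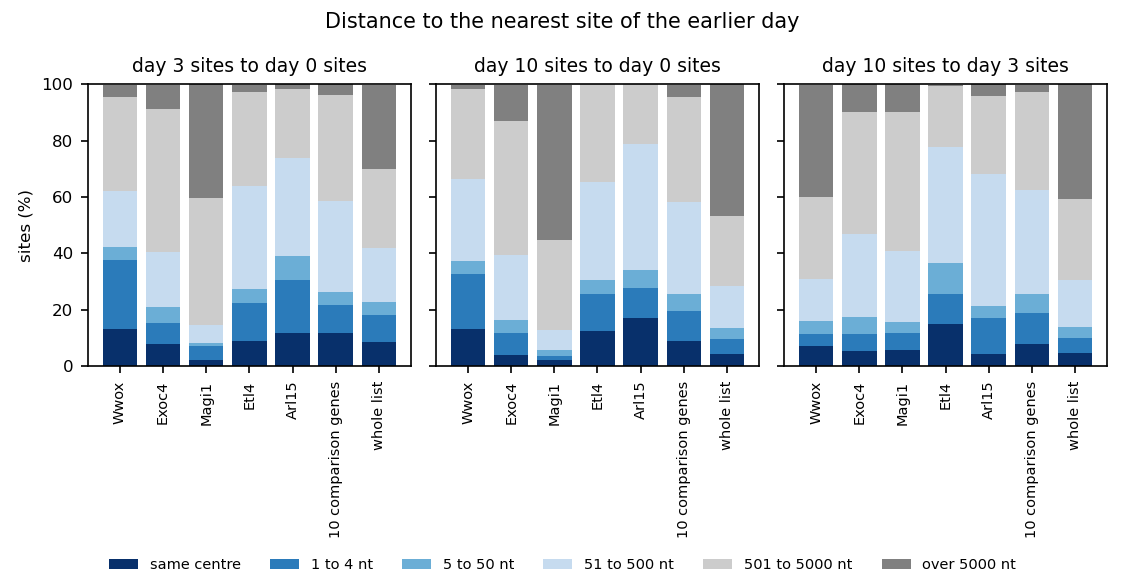
Stacked percent of sites (y axis) by the distance to the nearest site of the earlier day, for each gene, the 10 neighbouring genes and the whole list. The 2 darkest parts at the bottom are sites that share at least 1 nt. The parts are of unlike width, so their heights cannot be compared directly. That from 5 to 50 nt covers 92 nt of offset and that from 51 to 500 nt covers 900 nt.

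Joined where they touched, the sites of the 5 genes made 1965 distinct positions, of which 488 were bound on day 0 alone, 368 on day 3 alone and 823 on day 10 alone. Days 0 and 3 alone shared 50 positions, days 0 and 10 alone 90, days 3 and 10 alone 85, and 61 (3.10%) were bound on all 3 days. In the 10 neighbouring genes 102 of 2238 positions (4.56%) were bound on all 3 days. By gene, the positions of all 3 days were 22 of 380 in Etl4 (5.79%), 17 of 642 in Exoc4 (2.65%), 9 of 328 in Wwox (2.74%), 7 of 239 in Arl15 (2.93%) and 6 of 376 in Magi1 (1.60%). In 52 of the 61 positions the centres of the 3 days lay within 1 nt of each other, and in 17 they were identical.

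The positions of all 3 days in the fullest clusters show how such places look. In Etl4, the centres at 20685845 and 20685853 on chromosome 2 were identical on the 3 days. They lay within a cluster of 7 sites that ran to 20685949 and held 2 sites on day 0, 2 on day 3 and 3 on day 10. In Exoc4, a patch of 14 nt between centres 33298598 and 33298607 on chromosome 6, 49.5 kb from the 5′ end, held 2 sites on each of the 3 days. A second Exoc4 position lay at 33637351 to 33637352, in a cluster with 1, 2 and 2 sites.

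In Wwox, the positions were 114843792 to 114843793 and 114854399 to 114854400 on chromosome 8, 404.2 and 414.8 kb from the 5′ end. The cluster around the first held 3, 1 and 2 sites and that around the second 2, 1 and 2. In Arl15 they were 113825722 to 113825723 and 113998655 to 113998656 on chromosome 13, in clusters with 3, 1 and 1 and with 1, 2 and 1 sites. In Magi1 they were 93869807 to 93869808 and 94036981 on chromosome 6, the second of them identical on the 3 days, in clusters with 1, 1 and 3 and with 1, 1 and 2 sites.

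**Figure D4:**
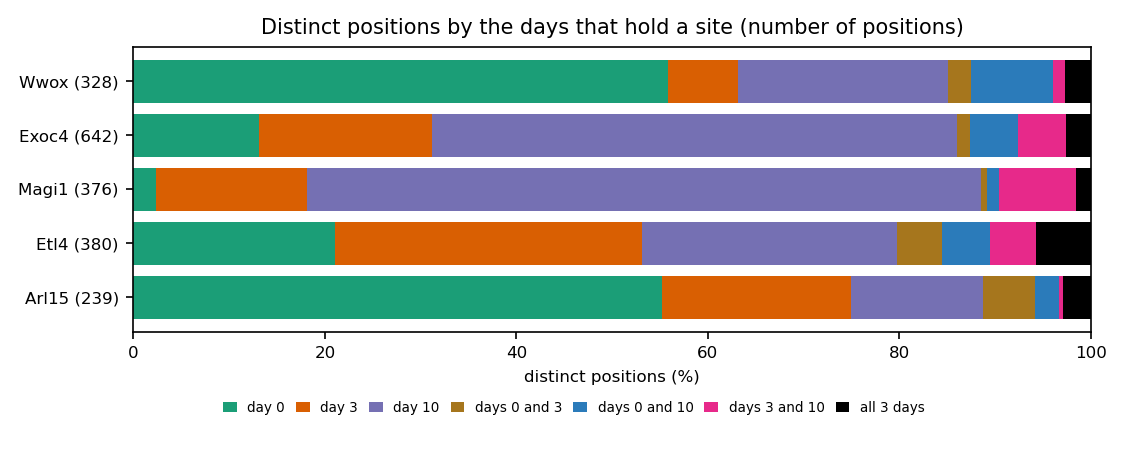
Distinct positions of each gene (percent, x axis) by the days that hold a site there, with the number of positions in brackets. Positions of 1 day make up most of each bar, and those of all 3 days, in black, are between 1.60% in Magi1 and 5.79% in Etl4.

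When sites up to 100 nt apart were joined, the 5 genes held 1677 clusters, of which 81 (4.83%) held sites of all 3 days and 1298 (77.4%) sites of a single day. Most were single sites, 1235 of the 1677. Among the 1830 clusters of the 10 neighbouring genes, 138 (7.54%) held sites of all 3 days and 71.8% sites of a single day. The clusters of all 3 days held 22.7% of the Etl4 sites, 11.8% of Exoc4, 11.7% of Arl15, 10.9% of Wwox and 5.41% of Magi1. This share ran between 10.8% in Diaph3 and 23.2% in Setd5 over the 10 neighbouring genes. Clusters of the 5 genes made of sites of 1 day were small. The fullest held 3 sites, on day 0, between centres 114753600 and 114753693 in Wwox and between 33643165 and 33643212 in Exoc4. In Magi1, Etl4 and Arl15 no cluster of a single day held more than 2 sites. By share of sites within 100 nt of another site of the same day, the genes ran between 10.6% in Arl15 and 19.5% in Etl4. The 128 other long genes had a median of 12.4% and an upper quartile of 17.5%. Only Arl15 lay below that median, and only Etl4 above that quartile. Over the 3 lists the 5 genes held between 42.4 (Wwox) and 104 sites (Exoc4) per 100 kb, against an upper quartile of 31.2 in the 128 genes. The part of this density in the shares was not tested.

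Most relatives of the 5 genes and most of the other very long genes looked at held few sites or none. Their counts are described without a test, since each day is 1 pooled list. Set against the 143, 175 and 435 sites of Exoc4, the 7 of 8 other exocyst subunits with a site in some list had 22, 8 and 25 in all. Exoc6b, whose gene spans 451.8 kb, had 18, 4 and 11 of them. Exoc2 held 0, 2 and 8 sites and Exoc5 held 2, 1 and 4.

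Of the other MAGI genes, Magi3 held 19, 11 and 106 sites, and its share of the list was 2.23 times as large on day 10 as on day 0. Magi1 and Magi3 both had their highest count on day 10, which has the longest list. Their shares went opposite ways on day 3, at 4.64 times the day 0 share in Magi1 and 0.609 times in Magi3. Magi2, which spans 1485.4 kb, held 0, 1 and 0 sites. Of 18 other genes of the ARL family, 7 had a site, with 4, 10 and 26 sites in all. Arl4c held 0, 5 and 8 of them.

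Of 16 symbols for other very long genes, most of them known in humans from fragile sites, 6 had a site, with 105, 28 and 68 sites in all. Immp2l, a subunit of the mitochondrial inner membrane peptidase, held 85, 22 and 42 sites over 931.5 kb, and its share of the list on day 10 was 0.198 times that on day 0. In Wwox, too, the count was highest on day 0 and lowest on day 3, at 229 and 45. By share of the list both genes were lowest on day 10, at 0.955 times the day 3 share in Wwox and 0.726 times in Immp2l. Dmd, which encodes dystrophin, held 20, 4 and 2 sites, and Ctnna3, an alpha-catenin, held 0, 0 and 22. Dab1, Lsamp and Pard3b, all with longer spans than Wwox, held between 1 and 2 sites over the 3 lists together.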

How the data were processed

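Per the labels, SAM68 iCLIP2 libraries were made from E14 cells at 3 stages with 5 libraries each, and adapters carried unique molecular identifiers. The authors deposited 1 list of sites per day. Per the file headers, each site was given a gene, sites in overlapping genes were dropped and the score is switched off. The deposited score of every site is 0 and was not used. The submitters' processing notes name STAR 2.7.11a, SAMtools 1.22.1, UMI-tools 1.1.6, bedtools 2.31.1, MultiQC 1.31 and FastQC 0.12.1, with the builds GRCh38.p14 and GRCm38.p5. Which program called the sites and how libraries were pooled is not given in the sources used here.

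Gene IDs were named by position, where a single RefSeq protein-coding span (GRCm38.p6) held at least 80% of their sites, which named 7060 of 7380 protein-coding IDs. Centres at most 4 nt apart share at least 1 nt. Positions are site centres in 1-based coordinates. Bins and windows of 10 kb start at the 5′ end of the RefSeq span. Ratios of shares between lists carry no interval and no test. The counting steps were tested on simulated data. Python 3.11.15, NumPy 2.4.6, pandas 2.3.3 and SciPy 1.17.1 were used, and matplotlib 3.10.9 for plots.

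The members and lists were chosen with earlier results of these data known. Named besides the members were the 10 other protein-coding genes with the highest lowest count, up to 3 genes of each related list by number of sites, the other genes with a site among the very long ones, chosen after their values were seen, up to 2 positions of all days per gene in the fullest clusters and the fullest clusters of a single day. The bases at the sites were not analysed here, since only promoter windows were at hand. Alternatives varied the overlap, the window, the gap, the assignment to genes and the genes pooled. One item of a related list is not reported here and was left out of its counts.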

Additional observations from a re-analysis of the deposited data

How the results depend on the processing

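The pooled shares depend on what counts as shared. With identical positions required, the day 3 sites shared with day 0 were 8.13%, the day 10 sites shared with day 0 6.31%, the day 10 sites shared with day 3 6.97% and the day 0 sites shared with both later days 2.46%. With centres up to 50 nt apart the 4 values were 24.7%, 18.4%, 19.9% and 11.8%, and with centres up to 500 nt apart 49.3%, 40.3%, 49.1% and 29.2%. With centres up to 10 nt apart and without Exoc4, the gene with most sites, the 4 values stayed inside the intervals given. Taking all same-strand sites of the spans could not change them, since no other ID had a site inside a span. Leaving out the other genes in turn, a choice made after seeing the data, moved the day 10 share with day 0 to 12.2% without Wwox and 18.8% without Magi1. It moved the day 10 share with day 3 to 11.9% without Etl4 and the day 0 share with both days to 11.2% without Wwox. Per gene and pair of days, 30 of 30 shares stayed within their intervals at 10 nt and 24 at 50 nt, against 6 with identical positions and 1 at 500 nt. Windows of 1 kb and 50 kb moved 29 and 24 of the 30 window shares beyond theirs. Such an interval is wide where sites are few, so a share can change much and stay inside. With identical positions, the share of Magi1 day 0 sites met on day 10 fell from 50% to 31.8% and still counted as inside. The number of clusters per gene stayed within 1.5 times with a gap of 50 nt in 5 of 5 genes, and with 500 nt in 1. The lists carry no score or count, so a stricter threshold could not be set, and no library could be left out. No paired analysis was possible because each list pools the libraries of a day.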
